A study of Mus musculus with 18 samples.

Results

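Phase II conjugating enzymes are the liver's second line of chemical handling. They attach glutathione, glucuronic acid or sulfate to drugs, bile pigments, steroids and products of lipid peroxidation, which makes these compounds more soluble in water and readies them for export in bile or urine. Glutathione S-transferases (GST, soluble, and MGST, membrane-bound) add glutathione, UDP-glucuronosyltransferases (UGT) add a sugar, mostly glucuronic acid, from a UDP-sugar in the endoplasmic reticulum, and sulfotransferases (SULT) add sulfate from the donor PAPS in the cytosol. In rodent liver many of these genes are under the control of xenobiotic-sensing receptors and of the antioxidant factor NRF2, and several differ between males and females. The genes were chosen by symbol alone, as those of the MouseRef-8 v2 array named Gsta, Gstk, Gstm, Gsto, Gstp, Gstt or Gstz with a number, Mgst with a number, Ugt1 to Ugt3, or Sult with a number. The array held 71 probes for 51 such genes of the 16593 it names, and 37 of the 51 were detected, the brightest probe having a detection p below 0.05 in 2 or more of 18 libraries. These 37 comprised 19 of 21 GST, 2 of 3 MGST, 10 of 15 UGT and 6 of 12 SULT genes.

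The 18 libraries are livers of mice killed at 13 to 16 months of age, with 3 CR SIRT1-/-, 3 CR SIRT1+/-, 3 CR SIRT1+/+, 4 AL SIRT1-/-, 2 AL SIRT1+/- and 3 AL SIRT1+/+ mice. CR mice received 40% fewer calories, as a fortified chow, and AL mice ate a standard chow ad libitum, from an age the labels place at 2 to 5 months. SIRT1 is a protein deacetylase, and SIRT1-/- and SIRT1+/- mice carry a germline null allele on both chromosomes or on 1. The labels give every mouse as a C57BL/6J male, whereas the study's methods name both sexes. Each library is 1 liver, and whether any mice were littermates is not stated.

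Several properties of the libraries bear on all the values below. Xist, the RNA of the inactive X chromosome in females, was detected in 7 libraries (2 CR SIRT1-/-, 1 CR SIRT1+/-, 2 CR SIRT1+/+ and 2 AL SIRT1-/-), in which no Y-linked transcript had a detection p under 0.01, so that 5 of 9 CR and 2 of 9 AL libraries were of this kind. At 0.05 the Y-linked probe of Uty, which averaged -0.58 to -0.33 in the groups, passed in libraries with and without Xist. A library is said below to hold a Y-linked transcript where one passed 0.01. Of CR SIRT1-/- livers only replicate 1 holds one, and of CR SIRT1+/+ livers only replicate 2. Of AL SIRT1-/- livers, replicates 1 and 4 do. AL SIRT1-/- replicate 4 and CR SIRT1+/+ replicate 1 stood apart, with median correlations to the other libraries of 0.942 and 0.957, against 0.967 to 0.975 for the rest. The genotype label of AL SIRT1-/- replicate 1 is in doubt from a comparison with the study's own tables; the label was kept, and values with this library counted as AL SIRT1+/- are given where they change a result. In the numbering of the file the CR livers come first and the AL livers follow, and an effect of that order cannot be told apart from diet. The Sirt1 probe averaged 1.35, 1.23 and 1.51 in CR SIRT1-/-, SIRT1+/- and SIRT1+/+ livers and 1.04, 0.91 and 1.14 in the AL groups in the same order of genotypes, so it did not follow the genotype labels, and whether it lies in the deleted part is not known here. Of the hepatocyte markers, Ttr and Apoa1 had group means of 7.25 to 8.41 and the probe of Alb was near background, at -0.75 to -0.30. Serpina1c fell on CR by 0.70 on average (limma adjusted p = 0.0488), as 1 of 4 measured hepatocyte markers, against 3.63% of all genes. The median CR effect of the 4 markers was -0.64, with Ttr at -0.69, Apoa1 at -0.59 and the dim Alb probe at 0.09. Ttr and Apoa1 lay near the brightest probe of the arrays, which was itself on average 0.68 lower in CR than in AL libraries. The part of this limit in their falls was not tested. In whole liver, fewer cells of a type and less RNA per cell cannot be told apart.

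Levels are given as a scaled log2 signal, in which 0 is the mean of all probes of an array and 1 unit is a doubling at the average spread of the arrays. Signals of different probes do not measure relative amounts of their transcripts, and each gene is therefore compared only with itself. Of the 37 genes, 32 were detected in all 18 libraries, whereas Sult3a1 was detected in 3, Gsto2 in 6, Gsta1 in 13, and Gsta2 and Gstp2 in 16 each. Not detected in any library were Gstm3, Gstt4, Sult1b1, Sult1c1, Sult2a6, Sult4a1, Ugt2a1, Ugt2a2, Ugt2b5, Ugt2b37 and Ugt2b38, and Mgst2, Sult1e1 and Sult2b1 were each detected in 1. The brightest probe of an array lay at 7.29 to 9.02, and 9 of the 37 genes came within 1 of it in some library, as did 190 of all 8950 genes tested. These were Gsta3, Gstm2, Gstp1, Gstz1, Mgst1, Sult1a1, Ugt1a10, Ugt2b36 and Ugt3a2. For them the top of the array limits how high a value can be read, and that top was on average 0.68 lower in CR than in AL libraries.

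**Figure D1:**
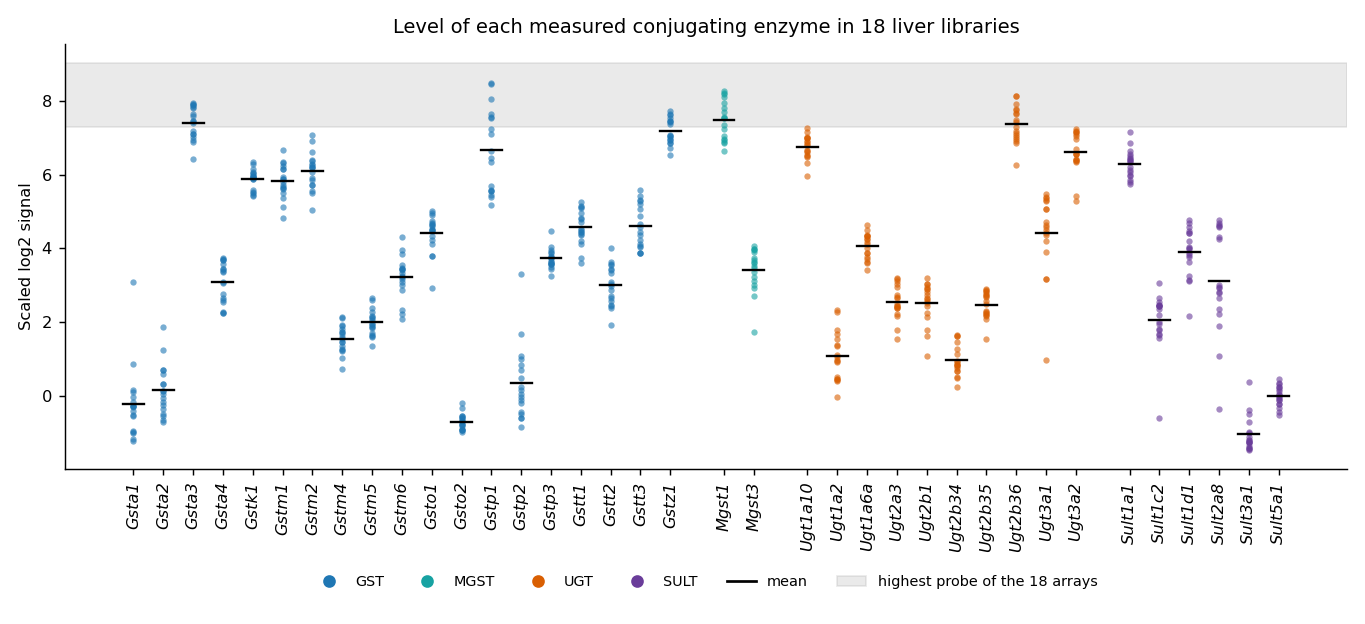
Scaled log2 signal (vertical axis) of the 37 detected genes, grouped by enzyme class along the horizontal axis; each point is 1 of 18 libraries, the bar is the mean, and the grey band spans the highest probe of the arrays, 7.29 to 9.02. Gsta3, Mgst1 and Ugt2b36 reach into the band, while the libraries of Gsta1, Gstp2, Sult2a8 and Ugt3a1 each span over 4 units.

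Many of these genes are near-identical members of tandem families, among them Gstm, Gstp, Gstt and Ugt2b, and transcripts of the Ugt1a locus share their last exons, so probes of 1 symbol may read a relative. Of the 37 genes, 11 had at least 2 detected probes, and in 8 of these the probes had the same sign for the averaged CR effect. The exceptions were Gsta3, Sult1d1 and Ugt1a6a.

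The promoters of 4 genes whose level was called different between diets are shown because these genes represent both directions and 3 of the classes. They are from RefSeq (GRCm38.p6), 300 bases each that run from upstream of the annotated start to just past it, with matches to 4 motifs in capitals. The motifs, searched on both strands, were the antioxidant response element core (TGACNNNGC, in 12.4% of 32851 promoters of that length), a STAT motif (TTCNNNGAA, 8.3%), the xenobiotic response element core (GCGTG, 32.4%) and TATAAA (13.6%).
Gstt3, chr10:75781373-75781672, minus strand: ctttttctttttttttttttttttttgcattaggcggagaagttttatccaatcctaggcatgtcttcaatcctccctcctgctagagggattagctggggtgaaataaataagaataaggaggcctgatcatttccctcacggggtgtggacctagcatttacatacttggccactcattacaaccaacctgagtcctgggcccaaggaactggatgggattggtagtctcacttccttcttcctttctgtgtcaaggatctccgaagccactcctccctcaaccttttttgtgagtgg
Gstp1, chr19:4037863-4038162, minus strand: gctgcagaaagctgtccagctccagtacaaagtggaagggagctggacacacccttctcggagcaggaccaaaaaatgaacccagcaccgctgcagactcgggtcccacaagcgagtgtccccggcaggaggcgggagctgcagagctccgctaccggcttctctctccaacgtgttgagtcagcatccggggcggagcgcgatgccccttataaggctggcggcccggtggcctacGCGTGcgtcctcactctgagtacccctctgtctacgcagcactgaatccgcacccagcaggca
Mgst1, chr6:138140277-138140576, plus strand: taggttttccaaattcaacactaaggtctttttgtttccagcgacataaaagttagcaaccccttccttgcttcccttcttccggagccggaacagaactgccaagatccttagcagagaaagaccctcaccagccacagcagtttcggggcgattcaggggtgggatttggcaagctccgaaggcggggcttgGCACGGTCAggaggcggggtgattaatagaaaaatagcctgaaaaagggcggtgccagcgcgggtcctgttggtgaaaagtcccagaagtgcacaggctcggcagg
Sult1d1, chr5:87568957-87569256, minus strand: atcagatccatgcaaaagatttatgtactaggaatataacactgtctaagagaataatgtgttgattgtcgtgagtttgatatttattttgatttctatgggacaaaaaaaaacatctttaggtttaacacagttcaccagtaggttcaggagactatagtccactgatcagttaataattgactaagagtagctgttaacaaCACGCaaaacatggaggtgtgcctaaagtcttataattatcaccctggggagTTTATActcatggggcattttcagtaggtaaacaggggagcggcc
No motif was matched in the Gstt3 window, GCGTG was matched in that of Gstp1 and of Sult1d1, TATAAA in that of Sult1d1, and the antioxidant response element core in that of Mgst1. Among the 34 detected genes with a promoter in the table, the antioxidant response element core occurred in 3 (Gsta3, Gstm5 and Mgst1), the STAT motif in 5, GCGTG in 8 and TATAAA in 6. A gene was counted once if any of its windows held the motif, and 8 of these genes had several; Mgst1 has 2, and its STAT match lies in the one not shown. A match is a description of letters and not a site of binding.

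The first comparison asked which of these enzymes respond to CR over all genotypes. Averaged over the 3 genotypes, 4 of the 37 genes rose on CR and 2 fell (limma, Benjamini-Hochberg adjusted p under 0.05 over 8950 genes), which is 16.2% of them, against 10% of all genes tested (574 up, 6.41%, and 325 down, 3.63%). Those that rose were the GSTs Gstt3 and Gstt2, the sulfotransferase Sult1d1 and the glucuronosyltransferase Ugt2b34, and those that fell were Gstp1 and Mgst1. With neqc or quantile normalization the split of all called genes was 499 up and 490 down or 510 up and 467 down.

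**Figure D2:**
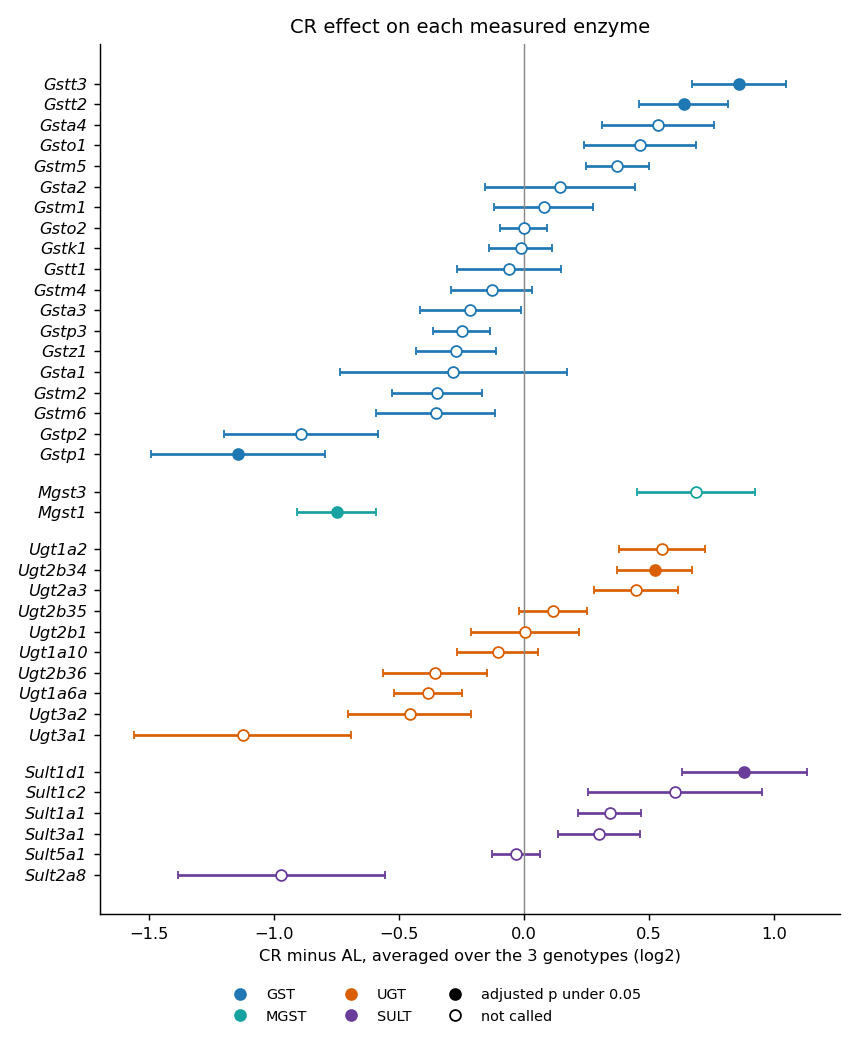
Difference between CR and AL on the log2 scale (horizontal axis), averaged over SIRT1-/-, SIRT1+/- and SIRT1+/+, for each of the 37 genes; bars are standard errors and filled points have a limma adjusted p under 0.05. The filled points are Gstt3, Gstt2, Ugt2b34 and Sult1d1 above 0 and Gstp1 and Mgst1 below 0.

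The theta-class GSTs act on small halogenated and epoxide substrates, and 2 of the 3 detected members rose. Gstt3 was at 5.42, 4.45 and 5.28 in CR SIRT1-/- livers, 4.67, 5.32 and 4.24 in CR SIRT1+/- livers and 5.58, 5.08 and 5.21 in CR SIRT1+/+ livers. It was at 3.88, 4.88, 4.38 and 3.87 in AL SIRT1-/- livers, 4.08 and 4.04 in AL SIRT1+/- livers and 4.11, 3.89 and 4.58 in AL SIRT1+/+ livers. In SIRT1+/- and SIRT1+/+ mice every CR library was above every AL library, while in SIRT1-/- mice 1 AL library reached into the CR range. The averaged CR effect was 0.86 (SE 0.19, adjusted p = 0.0128), and it was called under all 31 alternatives tried, at 0.75 to 0.96.

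Gstt2 was at 4.03, 3.34 and 3.58 in CR SIRT1-/-, 2.70, 3.08 and 3.62 in CR SIRT1+/- and 2.98, 2.88 and 3.46 in CR SIRT1+/+ livers. It was at 3.43, 3.03, 3.55 and 2.40 in AL SIRT1-/-, 2.47 and 2.57 in AL SIRT1+/- and 2.45, 1.93 and 2.67 in AL SIRT1+/+ livers. As for Gstt3, the diets overlapped only in SIRT1-/- mice. The averaged effect was 0.64 (SE 0.18, adjusted p = 0.0346) and lost its call in 15 of 31 alternatives. The adjusted p went up to 0.207 with libraries holding a Y-linked transcript only (effect 0.76), and to between 0.0261 and 0.104 when 1 library was left out, with the call lost for 9 of 18 libraries. These were replicate 1 of CR SIRT1-/-, replicates 2 and 3 of CR SIRT1+/-, replicate 3 of CR SIRT1+/+, replicate 2 of AL SIRT1-/-, both of AL SIRT1+/- and replicates 1 and 2 of AL SIRT1+/+. The third detected member, Gstt1, changed by -0.06 (SE 0.21, adjusted p = 0.878).

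Gstp1 and Gstp2 encode pi-class GSTs, which take up a wide range of electrophiles and are known in mouse liver to be higher in males. Gstp1 was at 6.34, 5.18 and 5.56 in CR SIRT1-/-, 7.23, 5.56 and 7.55 in CR SIRT1+/- and 6.45, 6.65 and 5.41 in CR SIRT1+/+ livers. It was at 7.55, 5.60, 5.44 and 5.70 in AL SIRT1-/-, 8.45 and 8.06 in AL SIRT1+/- and 8.48, 7.66 and 7.11 in AL SIRT1+/+ livers. All CR libraries were below all AL libraries in SIRT1+/- and SIRT1+/+ mice, and the diets overlapped in SIRT1-/- mice.

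The averaged CR effect on Gstp1 was -1.14 (SE 0.35, adjusted p = 0.0484). The probe lay within 1 of the top of the array in 7 libraries, and measured from that top the difference between the diets was -0.47. The second Gstp1 probe gave -0.88. The averaged effect of -1.14 lost its call in 20 of 31 alternatives. When 1 library was left out, the call was lost in 13 of 18 cases (adjusted p up to 0.140). It held for the omission of replicate 3 or 4 of AL SIRT1-/-, of replicate 3 of AL SIRT1+/+ or CR SIRT1+/-, and of replicate 1 of CR SIRT1-/-. The level moved with Xist as well. Gstp1 ranged over 5.18 to 6.45 (median 5.56) in the 7 libraries with Xist and over 5.70 to 8.48 (median 7.55) in the 11 without it. Restricted to livers in which a Y-linked transcript was detected, the averaged CR effect was -0.75 (adjusted p = 0.378), and with the Y-linked level as a covariate it was -0.81 (adjusted p = 0.131).

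Gstp2, read at a low level, had an averaged effect of the same sign as Gstp1, at -0.89 (SE 0.31), that was not called (limma adjusted p = 0.0765). It was at -0.60, -0.48 and -0.20 in CR SIRT1-/-, 0.70, -0.10 and 0.83 in CR SIRT1+/- and 0.16, 0.23 and -0.59 in CR SIRT1+/+ livers, against 0.04, -0.03, -0.44 and -0.84 in AL SIRT1-/-, 1.68 and 1.08 in AL SIRT1+/- and 3.29, 1.00 and 0.48 in AL SIRT1+/+ livers. Because the Gstp genes are close copies, the probes of Gstp1 and Gstp2 may not be independent readings. Gstp3, the third of the group, had an effect of -0.25 (SE 0.11, adjusted p = 0.164).

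The alpha, mu, kappa, omega and zeta classes had no called gene. The largest of their averaged effects was that of Gsta4, the enzyme for the lipid peroxidation product 4-hydroxynonenal, at 0.54 (SE 0.22, adjusted p = 0.133). Gstm5 changed by 0.37 (SE 0.13, adjusted p = 0.0703) and Gsto1 by 0.46 (SE 0.22, adjusted p = 0.193), and the other mu-class genes lay between -0.35 and 0.08. Gsta3 and Gstz1, an enzyme of tyrosine breakdown, changed by -0.21 and -0.27 with SE of 0.20 and 0.16. Their probes lay within 1 of the top of the array in 14 and 8 libraries, and measured from the top the differences were 0.46 and 0.40. The dimmer Gsta3 probe, detected in all 18 libraries, gave 0.73.

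Gsta3, a main alpha-class enzyme of mouse liver, was at 7.92, 6.93 and 7.10 in CR SIRT1-/-, 7.41, 7.04 and 7.90 in CR SIRT1+/- and 7.83, 7.11 and 6.88 in CR SIRT1+/+ livers, against 7.46, 7.46, 7.59 and 6.43 in AL SIRT1-/-, 7.81 and 7.93 in AL SIRT1+/- and 7.90, 7.64 and 7.18 in AL SIRT1+/+ livers. Gstz1 was at 7.46, 6.85 and 7.01 in CR SIRT1-/-, 7.04, 6.94 and 7.61 in CR SIRT1+/- and 7.05, 6.72 and 6.86 in CR SIRT1+/+ livers, against 7.07, 7.44, 7.72 and 6.55 in AL SIRT1-/-, 7.54 and 7.37 in AL SIRT1+/- and 7.66, 7.46 and 6.95 in AL SIRT1+/+ livers. For both genes the diets overlapped in every genotype, and the lowest value was that of AL SIRT1-/- replicate 4.

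Mgst1, a membrane-bound enzyme that conjugates glutathione and reduces lipid hydroperoxides, had the smallest adjusted p of the falls. It was at 7.55, 6.65 and 7.04 in CR SIRT1-/-, 7.36, 6.97 and 8.11 in CR SIRT1+/- and 6.85, 6.93 and 6.88 in CR SIRT1+/+ livers. It was at 7.69, 7.53, 7.82 and 7.23 in AL SIRT1-/-, 8.23 and 8.18 in AL SIRT1+/- and 8.27, 7.95 and 7.57 in AL SIRT1+/+ livers. No CR library reached an AL library in SIRT1+/- or SIRT1+/+ mice, and 1 CR SIRT1-/- library lay within the AL range.

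The averaged effect on Mgst1 was -0.75 (SE 0.16, adjusted p = 0.0103) and kept its call in 28 of 31 alternatives. It lost it with neqc normalization (-0.29, limma adjusted p = 0.0617), with the mean of both probes (-0.91, adjusted p = 0.336) and among livers holding a Y-linked transcript (-0.46). Quantile normalization, which equalizes the tops of the arrays as neqc does, kept the call. Mgst1 had a median of 6.97 in the 7 libraries with Xist and of 7.69 in the 11 without it. The probe lay within 1 of the top of the array in 16 libraries, and that top was itself lower on CR. Measured from the top of each array, Mgst1 differed between the diets by -0.07. The second Mgst1 probe was not detected in 3 libraries (replicate 2 of CR SIRT1-/-, replicate 3 of CR SIRT1+/- and replicate 2 of AL SIRT1+/-), at -1.22 to -0.97, and was at 4.60 to 6.67 in the other 15, whereas the brightest probe read 6.65 to 8.18 in those 3 libraries. It was the single named probe of the array that was either at 4 or above or undetected in each library, with 3 to 6 libraries undetected.

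Mgst3, which acts in leukotriene synthesis as well as in detoxification, ran the other way. It was at 3.60, 3.95 and 3.98 in CR SIRT1-/-, 3.46, 4.06 and 3.54 in CR SIRT1+/- and 3.36, 3.92 and 3.98 in CR SIRT1+/+ livers, against 3.63, 3.69, 3.73 and 1.72 in AL SIRT1-/-, 3.02 and 3.12 in AL SIRT1+/- and 3.22, 2.92 and 2.72 in AL SIRT1+/+ livers. CR was above AL without overlap in SIRT1+/- and SIRT1+/+ mice, and the value of 1.72 is that of AL SIRT1-/- replicate 4. The averaged effect of 0.69 (SE 0.24) was not called (adjusted p = 0.0745).

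Among the UGT genes, 1 of 10 was called for the averaged CR effect. Ugt2b34, of the family that glucuronidates steroids and bile acids, was at 0.91, 1.62 and 1.61 in CR SIRT1-/-, 1.14, 1.65 and 0.96 in CR SIRT1+/- and 0.50, 1.26 and 1.47 in CR SIRT1+/+ livers. It was at 0.24, 0.87, 0.68 and 0.48 in AL SIRT1-/-, 0.76 and 0.82 in AL SIRT1+/- and 0.83, 0.67 and 0.85 in AL SIRT1+/+ livers. The CR values lay above the AL values in SIRT1-/- and SIRT1+/- mice, and CR SIRT1+/+ replicate 1, at 0.50, broke this in SIRT1+/+ mice. The effect was 0.52 (SE 0.15, adjusted p = 0.0386), and it lost its call in 14 of 31 alternatives (adjusted p up to 0.114), 11 of them with 1 library left out. The call was kept on omission of replicate 1 of CR SIRT1-/-, replicate 3 of CR SIRT1+/-, replicate 1 of CR SIRT1+/+, any of replicates 2 to 4 of AL SIRT1-/- or replicate 3 of AL SIRT1+/+, and lost on omission of any other library.

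The UGT3 enzymes use sugars other than glucuronic acid. Ugt3a1, which uses N-acetylglucosamine, had the largest fall among the UGT genes, at -1.12 (SE 0.44), and was not called (adjusted p = 0.108). It was at 4.20, 4.37 and 4.71 in CR SIRT1-/-, 3.17, 4.50 and 4.58 in CR SIRT1+/- and 0.97, 3.92 and 4.63 in CR SIRT1+/+ livers, against 4.42, 5.47, 5.39 and 3.17 in AL SIRT1-/-, 5.36 and 5.08 in AL SIRT1+/- and 5.33, 5.07 and 5.29 in AL SIRT1+/+ livers. The diets did not overlap in SIRT1+/- and SIRT1+/+ mice. The lowest CR and the lowest AL value are those of replicate 1 of CR SIRT1+/+ and replicate 4 of AL SIRT1-/-. With both libraries left out, a setting added after the data were seen, the effect was -0.92 and its limma adjusted p 0.0153. Ugt3a1 stayed uncalled in 26 of 31 alternatives. Its neighbour in the family, Ugt3a2, changed by -0.46 (SE 0.24, adjusted p = 0.238).

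The other UGT genes divided between both directions. Ugt2a3 changed by 0.45 (SE 0.17, adjusted p = 0.0994) and Ugt1a6a, of the enzymes that take planar phenols, by -0.38 (SE 0.13, adjusted p = 0.0795), while Ugt2b1, Ugt2b35 and Ugt1a10 lay between -0.11 and 0.12. The directions of Gsta3, Gstz1, Ugt2b36, Ugt1a10 and Ugt2b1 turned with neqc or quantile normalization. Ugt2b36 was at 7.64, 6.92 and 7.09 in CR SIRT1-/-, 7.29, 6.96 and 8.14 in CR SIRT1+/- and 7.13, 7.02 and 6.87 in CR SIRT1+/+ livers, against 7.47, 7.43, 7.67 and 6.28 in AL SIRT1-/-, 7.80 and 7.92 in AL SIRT1+/- and 8.13, 7.76 and 7.18 in AL SIRT1+/+ livers. Its diets were apart in SIRT1+/+ mice and overlapped in the other genotypes, and the averaged effect was -0.36 (SE 0.21, adjusted p = 0.278). Ugt1a10 was at 7.27, 6.31 and 6.82 in CR SIRT1-/-, 6.49, 6.54 and 6.80 in CR SIRT1+/- and 6.90, 6.65 and 6.67 in CR SIRT1+/+ livers, against 7.16, 7.01, 6.997 and 5.97 in AL SIRT1-/-, 6.93 and 7.03 in AL SIRT1+/- and 6.999, 6.61 and 6.50 in AL SIRT1+/+ livers. The diets were apart in SIRT1+/- mice only.

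In the SULT class, Sult1d1, which sulfates catecholamines and eicosanoids in rodents, was called. It was at 3.99, 4.43 and 4.57 in CR SIRT1-/-, 3.76, 4.41 and 4.70 in CR SIRT1+/- and 4.02, 4.78 and 4.48 in CR SIRT1+/+ livers. It was at 3.25, 4.20, 4.04 and 2.16 in AL SIRT1-/-, 3.63 and 3.11 in AL SIRT1+/- and 3.83, 3.89 and 3.14 in AL SIRT1+/+ livers. In SIRT1+/- and SIRT1+/+ mice all CR libraries were above all AL libraries. The effect was close in size in the 3 genotypes, at 0.92 (SE 0.40) in SIRT1-/-, 0.92 (SE 0.47) in SIRT1+/- and 0.81 (SE 0.42) in SIRT1+/+ mice, and averaged 0.88 (SE 0.25, adjusted p = 0.0371). It lost its call in 16 of 31 alternatives, 12 of them with 1 library left out (adjusted p up to 0.116). Omission of replicate 1 of any CR group or of replicate 2, 3 or 4 of AL SIRT1-/- kept the call, and omission of any other library lost it. A dimmer Sult1d1 probe, detected in 8 libraries, had a difference of -0.15, and the mean of both probes gave 0.37 (adjusted p = 0.131).

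**Figure D3:**
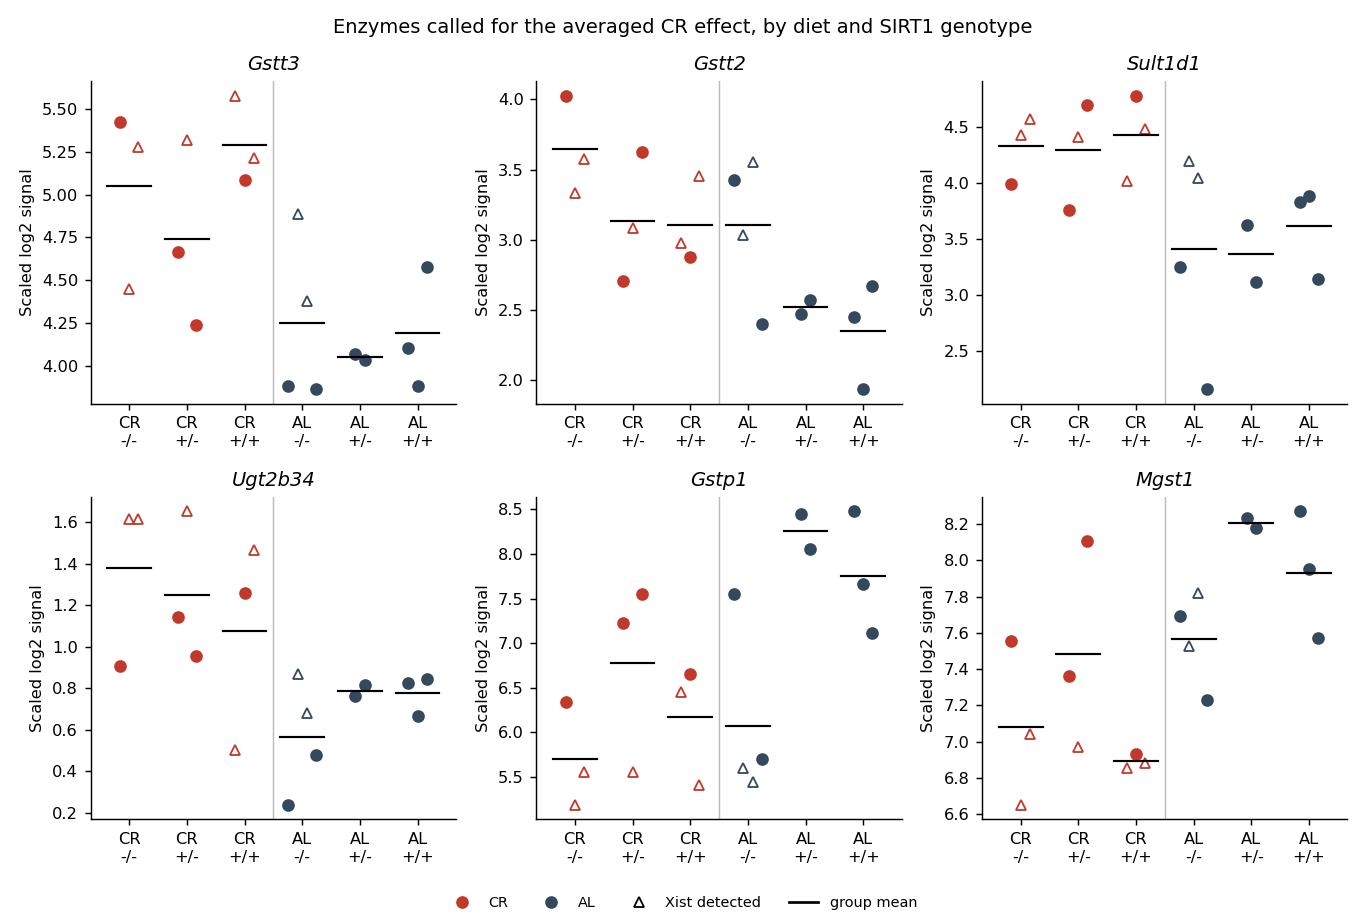
Scaled log2 signal (vertical axis) in each library of the 6 genes called for the averaged CR effect, by diet and SIRT1 genotype; CR is red and AL dark, open triangles are libraries with Xist detected, and bars are group means. Gstt3, Gstt2, Sult1d1 and Ugt2b34 lie higher on CR and Gstp1 and Mgst1 lower, and the 7 triangles of Gstp1 all lie at 6.45 or below.

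Sult1a1, the main phenol sulfotransferase, was at 6.86, 6.40 and 6.55 in CR SIRT1-/-, 5.81, 6.43 and 6.08 in CR SIRT1+/- and 7.16, 6.34 and 6.37 in CR SIRT1+/+ livers, against 6.22, 6.65, 6.50 and 6.44 in AL SIRT1-/-, 6.01 and 5.74 in AL SIRT1+/- and 5.96, 5.84 and 6.13 in AL SIRT1+/+ livers. The diets were apart in SIRT1+/+ mice, and the averaged effect of 0.34 (SE 0.13) was not called (adjusted p = 0.0923). Sult1c2 was at 2.37, 2.56 and 2.66 in CR SIRT1-/-, 2.20, 2.44 and 1.78 in CR SIRT1+/- and 1.68, 2.43 and 3.05 in CR SIRT1+/+ livers, against 2.00, 2.46, 2.48 and -0.60 in AL SIRT1-/-, 1.57 and 1.64 in AL SIRT1+/- and 1.80, 1.96 and 2.43 in AL SIRT1+/+ livers. The value of -0.60 was that of AL SIRT1-/- replicate 4, and the averaged effect was 0.60 (SE 0.35, adjusted p = 0.276). Sult5a1 changed by -0.03 (SE 0.09, adjusted p = 0.856).

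Of the 37 genes, 6 were higher on CR without overlap of the libraries in at least 2 of the 3 genotypes and 4 were lower, which is 16.2% of them against 7.93% of all genes, and 10.8% against 5.2%. These were Gstt2, Gstt3, Mgst3, Sult1d1, Ugt2a3 and Ugt2b34, and Gstp1, Gstp2, Mgst1 and Ugt3a1. The 6 higher genes had higher medians in the 7 libraries with Xist than in the 11 without it. With and without Xist, Gstt3 was at 5.21 and 4.11, Gstt2 at 3.34 and 2.67, and Mgst3 at 3.95 and 3.22. Sult1d1 was at 4.41 and 3.76, Ugt2a3 at 3.025 and 2.45, and Ugt2b34 at 1.47 and 0.83. Of the 4 lower, Gstp1, Gstp2 and Mgst1 had lower medians with Xist, but Ugt3a1 did not (4.63 and 4.58). Xist was more common on CR, so these medians do not separate diet from sex.

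The second comparison asked whether the response to CR is the same in mice with 0, 1 or 2 SIRT1 alleles. Within a single genotype, 1 of the 37 genes was called in SIRT1+/+ mice (0.659% of all genes), and 0 in SIRT1-/- (0.145%) and 0 in SIRT1+/- mice (0.0223%). At an unadjusted p under 0.05 there were 7 of 37 in SIRT1-/-, 2 in SIRT1+/- and 12 in SIRT1+/+ mice, against 15%, 8.34% and 14.6% of all genes. The median standard error over the 37 genes was 0.30, 0.36 and 0.32 in these genotypes. A difference between CR effects was called for 0 of the 37 genes between SIRT1-/- and SIRT1+/+ mice (0.0223% of all genes, with 8 of 37, or 21.6%, at an unadjusted p under 0.05 against 5.21% of all genes) and for 0 between SIRT1+/- and SIRT1+/+ mice (0% of all genes, with 5.41% of the 37 and 1.17% of all genes unadjusted).

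By class, the GST genes had a median CR effect of 0.17 in SIRT1-/-, -0.08 in SIRT1+/- and -0.25 in SIRT1+/+ mice, with 13, 8 and 5 of 19 genes above 0. The UGT genes had medians of 0.17, -0.21 and -0.39, with 7, 3 and 3 of 10 above 0. The median over all 8950 genes was 0.01, 0.03 and 0.03 in the same genotypes, with 52.2%, 54.9% and 54.8% of them above 0. SULT genes had medians of 0.26, 0.14 and 0.48, with 4 of 6 above 0 in each genotype. Per gene, the CR effect in SIRT1-/- minus that in SIRT1+/+ mice had a median of 0.39 over the GST, 0.68 over the UGT and 0.09 over the SULT genes, and of -0.01 over all genes. These medians are descriptions of genes that share the same libraries, and both differences between genotypes rest on the same SIRT1+/+ livers. Without the 2 libraries that stood apart, the UGT median of that difference was 0.24. With libraries holding a Y-linked transcript only, CR replicate 1 stands against AL replicates 1 and 4 in SIRT1-/- mice. The GST and UGT medians of the CR effect in SIRT1-/- mice were then 0.65 and 0.62. Without AL SIRT1-/- replicate 4 they were 0.01 and -0.01, without replicate 1 of CR SIRT1-/- the GST median was 0.01, and with array weights they were -0.05 and -0.02. The UGT median in SIRT1+/+ mice was -0.08 without CR SIRT1+/+ replicate 1.

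**Figure D4:**
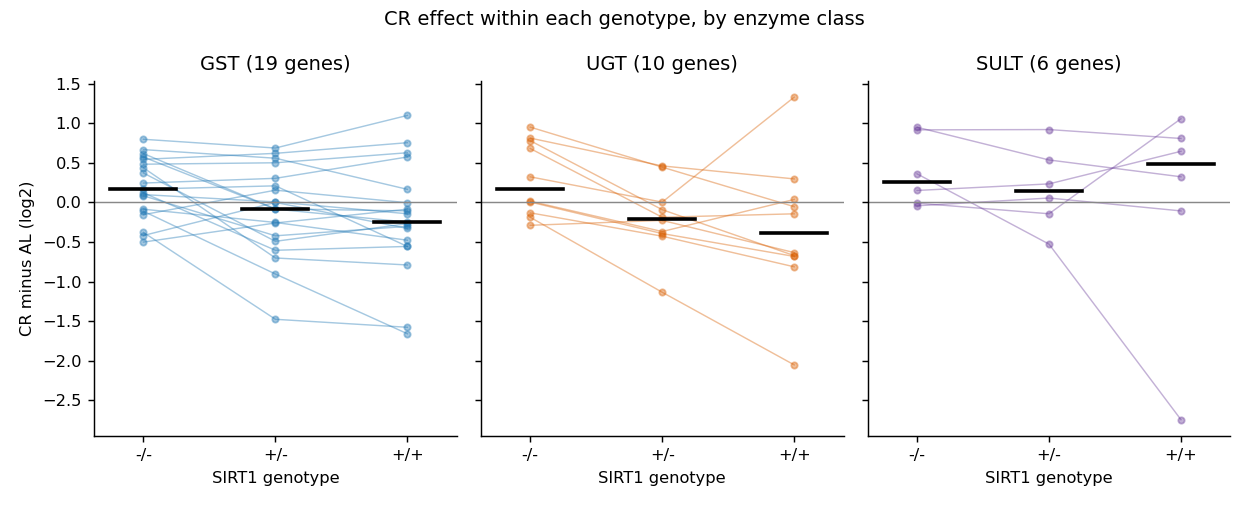
CR effect on the log2 scale (vertical axis) within SIRT1-/-, SIRT1+/- and SIRT1+/+ mice (horizontal axis) for the GST, UGT and SULT genes; each line is 1 gene and each black bar the class median. The GST and UGT medians are above 0 in SIRT1-/- and below 0 in SIRT1+/+ mice, and single genes cross in both directions; without AL SIRT1-/- replicate 4 the SIRT1-/- medians are 0.01 and -0.01.

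The gene called in SIRT1+/+ mice was Ugt1a2, a member of the bilirubin and phenol glucuronidating Ugt1 locus. It was at 1.69, 1.11 and 1.77 in CR SIRT1-/-, 0.45, 0.91 and -0.04 in CR SIRT1+/- and 2.34, 1.38 and 2.27 in CR SIRT1+/+ livers, against 0.95, 1.35, 1.54 and 0.96 in AL SIRT1-/-, 0.41 and 0.47 in AL SIRT1+/- and 0.44, 0.50 and 1.06 in AL SIRT1+/+ livers. CR and AL libraries were apart in SIRT1+/+ mice and overlapped in the other genotypes. The CR effect was 1.33 (SE 0.29, adjusted p = 0.0499) in SIRT1+/+, 0.00 (SE 0.32, adjusted p = 0.998) in SIRT1+/- and 0.32 (SE 0.27, adjusted p = 0.601) in SIRT1-/- mice.

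The Ugt1a2 effect in SIRT1-/- minus that in SIRT1+/+ mice was -1.01 (SE 0.40) and that in SIRT1+/- minus SIRT1+/+ mice -1.33 (SE 0.43), neither called (adjusted p = 0.799 and 1). The call in SIRT1+/+ mice was lost in 22 of 31 alternatives, 13 of them with 1 library left out (all but replicates 2 and 3 of CR SIRT1+/-, replicate 2 of CR SIRT1+/+, replicate 4 of AL SIRT1-/- and replicate 3 of AL SIRT1+/+), and among livers holding a Y-linked transcript the effect was 0.71 (adjusted p = 0.376). In the 3 CR SIRT1+/+ livers the 2 with Xist were at 2.34 and 2.27 and the other at 1.38. Over all groups, Ugt1a2 had a median of 1.54 in the 7 libraries with Xist and of 0.50 in the 11 without it.

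Sult2a8, a sulfotransferase of bile acids in mice, had the largest difference in CR effect between SIRT1-/- and SIRT1+/+ mice. Sult2a8 was at 2.83, 2.35 and 2.23 in CR SIRT1-/-, 4.32, 2.97 and 4.69 in CR SIRT1+/- and -0.34, 3.02 and 2.92 in CR SIRT1+/+ livers. It was at 1.89, 2.67, 2.80 and 1.08 in AL SIRT1-/-, 4.27 and 4.77 in AL SIRT1+/- and 4.58, 4.64 and 4.60 in AL SIRT1+/+ livers. The CR and AL libraries of SIRT1+/+ mice did not overlap, whereas those of the remaining mice did. The CR effect was 0.36 (SE 0.66, adjusted p = 0.832) in SIRT1-/-, -0.53 (SE 0.78, adjusted p = 0.895) in SIRT1+/- and -2.74 (SE 0.70, adjusted p = 0.0866) in SIRT1+/+ mice. The difference of the effects in SIRT1-/- and SIRT1+/+ mice, 3.10 (SE 0.96), was not called (adjusted p = 0.65). Without CR SIRT1+/+ replicate 1, at -0.34, the effect in SIRT1+/+ mice was -1.64 (adjusted p = 0.179) and the difference 2.00 (adjusted p = 0.944). Sult2a8 had a median of 2.67 in the 7 libraries with Xist and of 4.32 in the 11 without it. Neither AL SIRT1+/- nor AL SIRT1+/+ holds a library with Xist, so these medians do not separate sex from diet and genotype. In each CR group the libraries with Xist were below those without it. In AL SIRT1-/- livers those with Xist were higher, at 2.67 and 2.80, than those without it, at 1.89 and 1.08.

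The CR effect on Gstp1 was -0.38 (SE 0.55, adjusted p = 0.782) in SIRT1-/-, -1.48 (SE 0.66, adjusted p = 0.57) in SIRT1+/- and -1.58 (SE 0.59, adjusted p = 0.233) in SIRT1+/+ mice. With AL SIRT1-/- replicate 1 counted as AL SIRT1+/-, it was 0.11 (SE 0.48) in SIRT1-/- and -1.24 (SE 0.48) in SIRT1+/- mice. Gstt3 and Mgst1 had effects of 1 sign in every genotype, of 0.80 (SE 0.30), 0.69 (SE 0.36) and 1.10 (SE 0.32) for Gstt3 and of -0.48 (SE 0.25), -0.72 (SE 0.30) and -1.04 (SE 0.27) for Mgst1, in SIRT1-/-, SIRT1+/- and SIRT1+/+ mice.

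**Figure D5:**
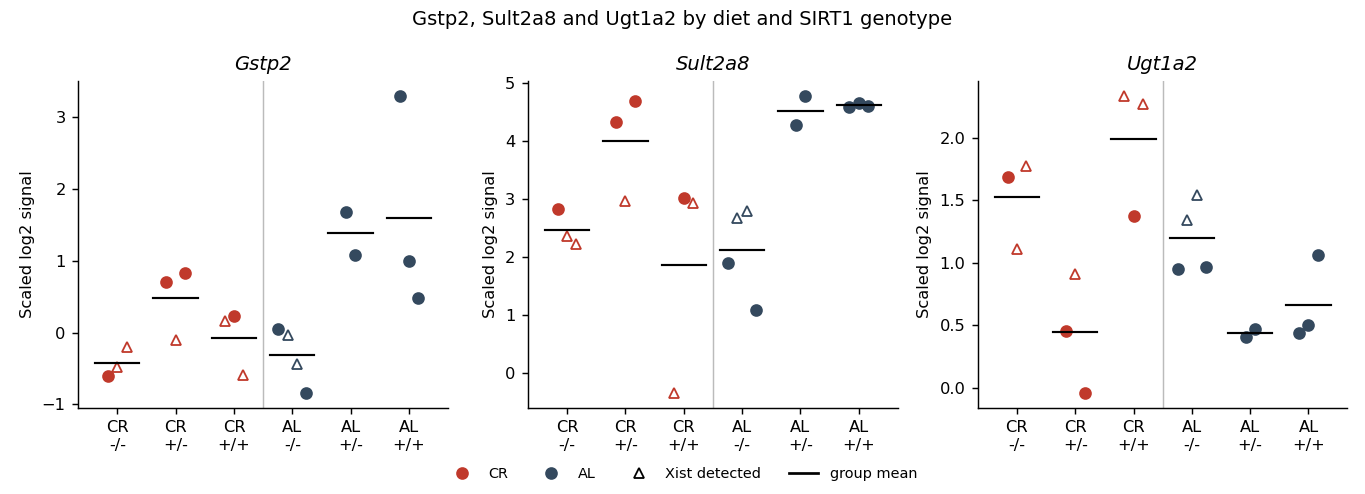
Scaled log2 signal (vertical axis) of Gstp2, Sult2a8 and Ugt1a2 in each library by diet and SIRT1 genotype; CR is red and AL dark, open triangles are libraries with Xist detected, and bars are group means. The 3 AL SIRT1+/+ values of Sult2a8 lie at 4.58 to 4.64, above all 4 AL SIRT1-/- values.

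The third comparison asked what the loss of SIRT1 alleles does on either diet. Between SIRT1-/- and SIRT1+/+ mice on AL, 0 of the 37 genes were called (0.380% of all genes). Before adjustment 9 had a limma p under 0.05, 2 of them higher and 7 lower, which is 24.3% of the 37 against 6.59% of all genes. Of the 37 genes 29.7% had a mean level of 5 or more, against 6.04% of all genes, and shares at a like level were not compared. Xist was detected in 2 of 4 SIRT1-/- and 0 of 3 SIRT1+/+ livers on AL. The genes with the largest differences in each class were lower in SIRT1-/- livers. Sult2a8 was lower by 2.50 (SE 0.66, adjusted p = 0.168), with no overlap between the 4 SIRT1-/- and the 3 SIRT1+/+ livers. It was called without CR SIRT1+/+ replicate 1 (limma adjusted p = 0.00991), a library outside this comparison that enters only through the shared estimate of spread. Among livers holding a Y-linked transcript the difference was -3.12, with SIRT1-/- livers at 1.89 and 1.08 against SIRT1+/+ livers at 4.58 to 4.64. These 2 SIRT1-/- livers are replicate 1, whose genotype label is in doubt, and replicate 4, which stood apart.

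Gstp2 and Gstp1 differed by -1.91 (SE 0.49, adjusted p = 0.158) and -1.68 (SE 0.55, adjusted p = 0.37) in the same comparison. Without AL SIRT1+/+ replicate 1, which had the highest Gstp2 value of 3.29, the Gstp2 difference was -1.05 (adjusted p = 0.497). For Gstp1 the AL SIRT1-/- livers without Xist were at 7.55 and 5.70 and those with it at 5.60 and 5.44. With replicate 1, at 7.55, counted as AL SIRT1+/-, the difference was -2.17 (adjusted p = 0.0758). Among the UGT genes, Ugt2b1 differed by -0.85 (SE 0.34, adjusted p = 0.618), at 1.62, 2.13, 2.43 and 1.80 in AL SIRT1-/- livers, below 2.81, 2.53 and 3.21 in AL SIRT1+/+ livers without overlap. Ugt2b1 was at 2.67, 2.91 and 2.74 in CR SIRT1-/-, 3.04, 2.94 and 2.25 in CR SIRT1+/- and 1.07, 2.58 and 2.89 in CR SIRT1+/+ livers, and it was at 2.64 and 3.03 in AL SIRT1+/- livers.

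By class, SIRT1-/- minus SIRT1+/+ on AL had medians of -0.04 over the GST, -0.34 over the UGT and -0.31 over the SULT genes, against 0.02 over all genes. Without AL SIRT1-/- replicate 4 these were 0.19, -0.15 and 0.22, so that the GST and SULT medians changed sign. On CR the medians were 0.23, 0.36 and -0.06, against -0.00 over all genes. Of the UGT genes 9 of 10 were above 0, against 49.3% of all genes, and 0 had an unadjusted limma p under 0.05. On CR, 0 of the 37 genes were called between SIRT1-/- and SIRT1+/+ (0% of all genes, with 10.8% of the 37 and 3.92% of all genes unadjusted) and 0 between SIRT1+/- and SIRT1+/+ livers (0%, with 16.2% and 4.47% unadjusted). SIRT1+/- and SIRT1+/+ livers on AL differed for 0 genes (0% of all genes, with 0 of 37 and 1.11% of all genes unadjusted), with only 2 AL SIRT1+/- livers and a median SE of 0.36.

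Genes that serve or regulate these enzymes were counted from lists of their own. Over all genes, 6.41% rose and 3.63% fell for the averaged CR effect. Of 12 measured genes for cofactors, among them Ugp2 for UDP-glucose, Papss2 for the sulfate donor and Gclc for glutathione, 0 were called for the averaged CR effect (median -0.11). Of 16 other conjugating enzymes, 2 fell, the acetyltransferase Nat8 by 1.43 and the glycine acyltransferase Glyat by 0.48 (adjusted p = 0.0496 and 0.0395), and 0 rose. Of 6 deconjugating enzymes (median -0.12) and of 12 receptors and transcription factors (median 0.32), 0 were called. Of 7 cytochrome P450 and related target genes of xenobiotic receptors, 5 rose, with a median of 1.65. These were Cyp2b10, the classical target of the receptor CAR, by 0.87 (adjusted p = 0.0144), Cyp3a11, a target of PXR, by 1.65 (adjusted p = 0.00813), Cyp4a14, a target of PPARα, by 2.99 (adjusted p = 0.00297), and Cyp2b9 and Cyp2b13, which are higher in female mouse liver, by 3.82 and 3.84 (adjusted p = 0.0387 and 0.0464). The 2 not called were Nqo1, a target of NRF2, at 0.21 (limma adjusted p = 0.337), and Cyp1a2, at -0.28 (limma adjusted p = 0.388).

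The marker lists moved with some of these values. Against 3.63% of all genes that fell on CR on average, 6 of 8 genes known as higher in male mouse liver did (median -2.03). Against 0.380% of all genes called in either direction, 5 of these 8 were lower in AL SIRT1-/- than in AL SIRT1+/+ livers. The log2 of their summed level ran over 4.42 to 6.58 in CR SIRT1-/-, 4.59 to 8.16 in CR SIRT1+/-, 4.70 to 6.54 in CR SIRT1+/+, 4.60 to 6.66 in AL SIRT1-/-, 8.83 to 9.34 in AL SIRT1+/- and 8.54 to 9.21 in AL SIRT1+/+ livers. In a sum of this kind the brightest probes of a list weigh most. The 2 groups with the highest sums, AL SIRT1+/- and AL SIRT1+/+, were also those with the highest means of Gstp1 and Gstp2. Neither of these groups held a library with Xist. Of 4 measured genes known as higher in female mouse liver, 2 rose on CR (Cyp2b9 and Cyp2b13, median of the 4 genes 2.79), against 6.41% of all genes. Both are also counted among the targets of xenobiotic receptors above. The log2 of the summed level of 4 acute-phase genes spanned 4.94 to 8.28 in AL SIRT1-/- livers, against at most 5.79 in the other groups. The part of either list in the results above was not tested.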

How the data were processed

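RNA of 18 mouse livers was hybridized by the authors to Illumina MouseRef-8 v2 arrays. The deposited probe signal intensities, read with BeadStudio 3.4.0 and not background-subtracted, come with a deposited detection p-value per probe and library. The deposited scores are z-transformed log10 signals, which the z-scores computed here from the signals met within 5e-10. For the levels reported, the z-score was multiplied by 1.84, the mean SD of log2 signal over arrays. Of 25697 probes, 23978 had 1 gene symbol in the platform annotation, 0 several and 1719 none. Probes whose detection p was below 0.05 in 2 or more libraries were kept (12816) and the brightest per gene was used (8950 genes). Groups follow the labels.

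limma 3.58.1 (R 4.3.3) fitted the 6 group means in 1 model with 10 contrasts. P-values (two-sided) were adjusted by Benjamini-Hochberg over all 8950 genes, with a threshold of 0.05, and the code was tested on simulated data. No read depth applies. The number of arrays limits the precision, as do signals near background or near the top of the array for some genes. Alternatives tried were quantile normalization and neqc (offset 16), z-scores as deposited, other detection filters, the mean of probes, compared groups only, array weights, a replicate block, Y-linked transcripts as a covariate or filter, and each library left out. After the data were seen, relabelling of 1 library and omission of the 2 that stood apart were added. The enzymes and gene lists were chosen with earlier results of these data known. Values per library are given for genes called in any contrast and, per class, for the 2 with the largest averaged CR effect, the 2 with the largest SIRT1-/- minus SIRT1+/+ difference on AL and the 2 brightest. Python 3.11.15 (with numpy 2.4.6, pandas 2.3.3, scipy 1.17.1 and matplotlib 3.10.9) was used for summaries and plots.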

Additional observations from a re-analysis of the deposited data

Results flagged for a closer look

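For each of the 37 genes the 4 AL SIRT1-/- livers were tested for a value far from the others, and 6 genes had one. Chance alone gives about 1 in 20 for a single gene. The genes share the same 4 livers, so their count cannot be set against that rate. In 5 of these the library was AL SIRT1-/- replicate 4. It was low for Gsta3 at 6.43 (others 7.46 to 7.59), Mgst3 at 1.72 (others 3.63 to 3.73), Sult1c2 at -0.60 (others 2.00 to 2.48) and Ugt1a10 at 5.97 (others 6.997 to 7.16), and high for Sult3a1 at -0.40 (others -1.25 to -1.13). AL SIRT1-/- replicate 1, the library whose genotype label is in doubt, was high for Gstp1 at 7.555 (others 5.44 to 5.70).

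For Sult3a1 the CR effect was -0.14 in SIRT1+/- mice, with every CR liver below every AL liver, and 1.06 in SIRT1+/+ mice, with every CR liver above every AL liver. The difference of the effects was -1.20 (SE 0.41) and was not called by limma (adjusted p = 1). Sult3a1 was detected in 2 of 3 CR SIRT1+/+ and 0 of 3 AL SIRT1+/+ livers, at least 1.18-fold higher on CR (group means -0.36 and -1.41), where the undetected group was set to the dimmest detected signal of each array. In SIRT1+/- livers on either diet it was not above background.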

How the results depend on the processing

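For the CR effect averaged over genotypes, where 6 of the 37 genes were called, 2 were called with no filter on dim probes and with the Y-linked covariate, 1 with libraries holding a Y-linked transcript only, 10 with the replicate block, 14 without the 2 libraries that stood apart and 17 with array weights. Leaving out 1 library gave 2 to 10 calls: 2 on omission of replicate 2 of CR SIRT1+/- or of replicate 1 or 2 of AL SIRT1+/- or AL SIRT1+/+, 3 on omission of replicate 3 of CR SIRT1-/- or CR SIRT1+/+ or of replicate 1 of AL SIRT1-/-, and 10 without AL SIRT1-/- replicate 4. In SIRT1+/+ mice the count of 1 became 0 under neqc, quantile normalization, no filter, the mean of probes, compared groups only, either use of the Y-linked transcripts and the relabelled library, 2 with the replicate block and 3 with array weights, and it was 0 to 2 with 1 library left out. Between SIRT1-/- and SIRT1+/+ livers on AL the count of 0 became 1 with array weights, with libraries holding a Y-linked transcript only and without the libraries that stood apart, and it was 0 to 1 with 1 library left out, the 1 being Sult2a8 without CR SIRT1+/+ replicate 1. The other 7 contrasts between groups kept their counts of 0 under all 31 alternatives. The share of all genes called under each alternative is not given beside these counts. They therefore do not show whether a change in calls is particular to these enzymes.

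With libraries holding a Y-linked transcript only, the GST and UGT medians were 0.65 and 0.62 for the CR effect in SIRT1-/- mice. The GST median was then 0.68 for the difference of CR effects between SIRT1-/- and SIRT1+/+ mice and -0.32 for SIRT1-/- minus SIRT1+/+ on AL. In this setting CR SIRT1-/- and CR SIRT1+/+ each hold a single library, and AL SIRT1-/- holds replicates 1 and 4. Without the libraries that stood apart, the UGT median was 0.24 for the difference of CR effects between SIRT1-/- and SIRT1+/+ mice, -0.067 for that between SIRT1+/- and SIRT1+/+ mice and -0.019 for SIRT1+/- minus SIRT1+/+ on CR. With 1 library left out, these last medians ran from -0.067 to 0.44 and from -0.019 to 0.45, lowest without CR SIRT1+/+ replicate 1. The cause of these changes was not tested. Of 25 results on single genes (18 genes), 20 kept their direction under all 31 alternatives. The other 5, averaged CR effects that were not called, turned as follows. With neqc and quantile normalization Gsta3 was at 0.20 and 0.21, Gstz1 at 0.081 and 0.083, Ugt1a10 at 0.167 and 0.168, Ugt2b36 at 0.076 and 0.079 and Ugt2b1 at -0.049 and -0.043. Gsta3 was at 0.256 with the mean of probes and, with libraries holding a Y-linked transcript only, at 0.097, as Ugt1a10 was at 0.103. Ugt2b1 was at -0.047 with the replicate block, at -0.028 with the Y-linked covariate and at -0.114 to 0.189 with 1 library left out (without replicate 3 and replicate 1 of CR SIRT1+/+). Same-numbered libraries did not deviate together (median correlation 0.02 over 40 pairs, and 8 of 18 libraries closest to their own number), so the number was not taken as a pairing, and with the replicate block, in which AL SIRT1-/- replicate 4 is alone with its number and so drops out, the averaged count was 10. Signals near background limit Sult3a1 and Gsto2, and signals near the top of the array limit Mgst1 and Gstp1.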
